A study of Rattus norvegicus with 54 samples.

Results

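Circadian clock genes were followed in 3 tissues of male Zucker rats through 8 symbols, Per1, Per2, Dbp, Tef, Nr1d1, Nr1d2, Bhlhe40 and Bhlhe41. All probe sets that the platform annotation gives to exactly 1 of these symbols were taken, whatever their values. They were 10 of 15866 probe sets and 8 of 10411 named genes. Nr1d2 had 3 probe sets and each of the other genes had 1.

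The series holds 54 Affymetrix Rat Expression Set 230A arrays, 18 each from epididymal adipose tissue, liver and gastrocnemius muscle. In each tissue 4 groups were obese fatty (fa/fa) rats given a ligand of the nuclear receptor PPARγ, namely pioglitazone, rosiglitazone, troglitazone or AG035029, a further group was untreated obese (fa/fa) rats, and the last was lean (fa/+) rats. Each group had 3 arrays, and each array carried pooled RNA from 2 rats. The fa/fa rats lack a working leptin receptor, so untreated obese and ligand-treated animals share that defect. Age, dose, length of treatment and hour of tissue harvest are not given in the sources used here, nor whether the 3 tissues came from the same animals, and p-values measure the spread between arrays.

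The mammalian clock is a transcriptional loop. BMAL1 and CLOCK switch on genes through E-box sequences, and among these are Per1 and Per2, whose proteins return to shut BMAL1 and CLOCK down. Nr1d1 and Nr1d2 encode the REV-ERB receptors, which repress Bmal1 and oscillate strongly in liver, fat and muscle. Dbp and Tef encode PAR bZIP activators that act through D-box sequences on metabolic genes, and Bhlhe40 and Bhlhe41 encode repressors that compete at E-boxes. Transcripts of these genes change over the day in peripheral tissues, so their level in 1 sample depends on the hour of harvest.

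The RefSeq promoter windows of the GRCr8 build, from 250 bases before to 50 bases after each start, were read for these genes because they show where the clock's own elements lie. All 8 genes matched, with 9 windows since Nr1d1 has a pair. The 3 windows printed here belong to the member with both kinds of element and to a REV-ERB gene and an E-box repressor, with E-box or D-box letters in capitals. They are Per2 at chr9:99496944-99497243 on the minus strand, Nr1d1 at chr10:84229405-84229704 on the minus strand and Bhlhe40 at chr4:143174200-143174499 on the plus strand.
Per2: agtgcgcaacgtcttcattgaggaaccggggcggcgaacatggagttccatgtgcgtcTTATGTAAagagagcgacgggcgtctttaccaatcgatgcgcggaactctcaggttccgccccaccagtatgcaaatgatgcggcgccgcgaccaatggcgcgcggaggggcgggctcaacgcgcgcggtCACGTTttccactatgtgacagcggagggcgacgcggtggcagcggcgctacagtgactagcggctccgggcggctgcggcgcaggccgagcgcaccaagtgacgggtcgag
Nr1d1: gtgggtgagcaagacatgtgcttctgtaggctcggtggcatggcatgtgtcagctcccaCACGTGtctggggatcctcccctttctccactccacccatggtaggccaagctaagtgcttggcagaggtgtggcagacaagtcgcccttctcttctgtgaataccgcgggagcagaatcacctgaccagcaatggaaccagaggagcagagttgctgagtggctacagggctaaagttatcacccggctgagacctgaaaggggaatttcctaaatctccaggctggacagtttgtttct
Bhlhe40: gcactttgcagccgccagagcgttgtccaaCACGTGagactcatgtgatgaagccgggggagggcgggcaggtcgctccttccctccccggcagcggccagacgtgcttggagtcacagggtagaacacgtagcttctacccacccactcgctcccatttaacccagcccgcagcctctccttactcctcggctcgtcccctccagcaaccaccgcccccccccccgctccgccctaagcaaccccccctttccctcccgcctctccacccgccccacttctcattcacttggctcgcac
The Per2 window holds the E-box variant CACGTT 62 bases and the D-box TTATGTAA 192 bases before its start. The E-box CACGTG begins 191 bases before the start in the Nr1d1 window and 220 bases before it in that of Bhlhe40. CACGTG, searched on both strands, was in 4 of the 9 windows, those of Tef, Nr1d1, Bhlhe40 and Bhlhe41, and in 6.42% of all 33469 windows. CACGTT was in 2, those of Per2 and the other Nr1d1 window, against 4.83% of all windows. TTATGTAA was in 1, against 0.893%, and the looser TTANGTAA, which includes it, was in the same window, against 2.24%. The short cAMP-element core TGACG was in the Per2 and Nr1d2 windows and in 21.2% of all. The full element TGACGTCA, which contains that core, and the REV-ERB and ROR element TAGGTCA were in none of the 9, against 1.83% and 2.63% of all. The Dbp and Per1 windows held none of these letters. A match is a description of these letters and not a site shown to be bound.

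Levels are MAS5 signals, a linear brightness per probe set, and are compared for 1 probe set across samples, never between probe sets. Median signals per array were 205.3 to 247.6 in adipose tissue, 200.8 to 248.4 in liver and 190.8 to 232.5 in muscle. The labelled tissues matched their markers. The 5 adipocyte genes measured summed to 27965 to 42316 on adipose arrays, the 8 hepatocyte genes to 188070 to 319944 on liver arrays and the 7 skeletal muscle genes to 255454 to 539582 on muscle arrays. In 1 liver library, troglitazone replicate 3, the summed skeletal muscle genes reached 26821, against at most 1526 on the other liver arrays, so the fits and correlations with liver arrays were repeated without it, and the values are given beside the results they touch. On muscle arrays the adipocyte sum was 8484 to 31221 in ligand-treated rats, 2890 to 5732 in untreated obese rats and 2588 to 3733 in lean rats.

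Tests used log2(signal + 20) and left out, in each tissue, the probe sets whose mean was at or below the 40th percentile, so that 9519 remained. Of the 10 clock probe sets 8 passed in adipose tissue and 8 in muscle, 7 passed in liver, and 6, from 5 genes, passed in all 3 tissues. The Nr1d2 probe set 1370540_at passed nowhere, Tef passed in muscle only, Per1 not in muscle and Bhlhe41 not in liver. Per1 ranged from 93.2 to 749 in adipose tissue (median 564) and from 71.7 to 478 in liver (median 278), against 29.0 to 121 in muscle (median 52.7), where every array lay below the adipose median. Bhlhe41 ranged from 758 to 3045 in muscle (median 1543) and from 395 to 874 in adipose tissue (median 646), but from 5.5 to 145 in liver (median 76.4). The 3 tissues overlapped for Per2, Dbp, Tef, Nr1d1 and all 3 Nr1d2 probe sets. Bhlhe40 had medians of 649 in liver and 573 in muscle, which overlapped widely, and of 225 in adipose tissue, whose arrays spanned 142 to 656.

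In adipose tissue the REV-ERB genes, Dbp, Per2 and Bhlhe40 were lower in ligand-treated obese rats than in lean rats. Of the 8 clock probe sets tested, 6 fell and 0 rose in the mean of the 4 ligand groups minus lean, and 35.5% of all tested probe sets were called in either direction in that comparison (limma, adjusted p under 0.05, which is what called means throughout). The median difference was -1.0 over the 8 clock probe sets and -0.07 over all tested. These differences on the log2(signal + 20) scale use no untreated obese array. Statements below that all arrays of a group lie below or above another group describe single probe sets. The share of all probe sets without overlap was not counted.

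Nr1d1, the REV-ERBα gene, had adipose signals of 580, 594 and 443 with pioglitazone, 342, 150 and 387 with rosiglitazone, 503, 263 and 150 with troglitazone, 403, 254 and 474 with AG035029, 621, 655 and 491 in untreated obese rats, and 810, 1087 and 1095 in lean rats. All 12 ligand arrays and all 3 untreated obese arrays lay below every lean array. The ligand mean was 2.74-fold below lean (log2 difference -1.45, SE 0.27, limma adjusted p = 0.000486). Ligand minus untreated obese was -0.72 (SE 0.27, limma adjusted p = 0.0703) and untreated obese minus lean was -0.74 (SE 0.34, adjusted p = 0.229), and neither was called.

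Nr1d2, the REV-ERBβ gene, was read by 2 tested probe sets, 1390430_at and 1370541_at, that moved the same way. With 1390430_at the adipose signals were 471, 507 and 327 with pioglitazone, 309, 276 and 297 with rosiglitazone, 522, 412 and 175 with troglitazone, 557, 405 and 471 with AG035029, 997, 626 and 567 in untreated obese rats, and 996, 1084 and 1101 in lean rats. The highest ligand array lay below the lowest untreated obese array. The ligand mean was 1.84-fold below untreated obese (log2 difference -0.88, SE 0.22, limma adjusted p = 0.00841) and 2.72-fold below lean (-1.44, SE 0.22, adjusted p = 7.54e-05). The first of these calls ended without untreated obese replicate 1, the brightest of that group, with a difference of -0.64 and an adjusted p of 0.104 (limma). Probe set 1370541_at averaged 359 in the 4 ligand groups, 505 in untreated obese rats and 760 in lean rats. Its ligand mean lay -0.47 from untreated obese (SE 0.16, limma adjusted p = 0.0463) and -1.04 from lean (SE 0.16, adjusted p = 9.34e-05). The remaining probe set, 1370540_at, read only 5.8 to 118 in adipose tissue and was not tested.

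Dbp, the PAR bZIP activator, had adipose signals of 462, 574 and 308 with pioglitazone, 266, 151 and 169 with rosiglitazone, 479, 706 and 259 with troglitazone, 357, 498 and 508 with AG035029, 667, 414 and 401 in untreated obese rats, and 795, 1371 and 897 in lean rats. No obese array, treated or not, reached the lowest lean array. The ligand mean was 2.67-fold below lean (log2 difference -1.42, SE 0.25, limma adjusted p = 0.000283), and untreated obese minus lean was -1.02 (SE 0.32, adjusted p = 0.0628), short of the threshold. Tef, the other PAR bZIP gene, had medians of 93.5 on ligand arrays and 104 on all adipose arrays, below the level tested.

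Per2 was the only clock gene called between untreated obese and lean adipose tissue. Its signals were 366, 546 and 440 with pioglitazone, 374, 570 and 301 with rosiglitazone, 583, 615 and 504 with troglitazone, 419, 525 and 513 with AG035029, 615, 438 and 292 in untreated obese rats, and 824, 1065 and 695 in lean rats. Every obese array, treated or not, lay below every lean array. Untreated obese minus lean was -0.95 (SE 0.24, a 1.93-fold lower level, limma adjusted p = 0.0246), 1 of 8 clock probe sets against 6.02% of all. This call ended when untreated obese replicate 2 or 3 or lean replicate 1 or 2 was left out, with adjusted p up to 0.138 (limma). The ligand mean lay -0.83 from lean (SE 0.19, limma adjusted p = 0.00272) but 0.12 from untreated obese (95% interval -0.28 to 0.53). Per1 was not called in adipose tissue. Its ligand mean lay 0.20 from untreated obese (95% interval -0.42 to 0.83), and 1 rosiglitazone array read 93.2 against 383 to 749 on the other 11 ligand arrays.

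Bhlhe40, an E-box repressor, had adipose signals of 199, 225 and 154 with pioglitazone, 279, 281 and 147 with rosiglitazone, 205, 149 and 142 with troglitazone, 189, 225 and 185 with AG035029, 378, 277 and 274 in untreated obese rats, and 305, 656 and 307 in lean rats. All ligand arrays were below all lean arrays, and 2 rosiglitazone arrays reached into the untreated obese range. Ligand minus lean was -0.96 (SE 0.21, limma adjusted p = 0.00194). Ligand minus untreated obese was -0.61 (SE 0.21, adjusted p = 0.0498), a call at the edge of the threshold. Bhlhe41, its paralog, averaged 597 in the ligand groups, 781 in untreated obese rats and 750 in lean rats. Its ligand mean lay -0.40 from untreated obese (SE 0.16, limma adjusted p = 0.0902) and -0.32 from lean (adjusted p = 0.138).

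Against untreated obese adipose tissue, then, 3 of 8 clock probe sets fell with the ligands and 0 rose, while 20.6% of all tested probe sets were called. The median was -0.44 over the clock probe sets and -0.05 over all. The calls of Bhlhe40 and of Nr1d2 probe set 1370541_at ended with quantile normalization, with median centring and without the filter on low signals, and each ended in 11 of the 18 fits that left out 1 array, so that only Nr1d2 probe set 1390430_at was called under all those scalings. Cell-type marker sums also differed between these groups, in orders that varied by cell type. The 5 adipocyte genes summed to 30756 to 42316 on ligand arrays, 28499 to 35707 on untreated obese arrays and 27965 to 32728 on lean arrays. The 10 macrophage genes summed to 12712 to 25479 on ligand arrays, 27288 to 28038 on untreated obese arrays and 12692 to 13733 on lean arrays, and 8 of the 10 fell in ligand minus untreated obese while 7 rose in untreated obese minus lean. The 6 leukocyte genes summed to 4018 to 8078 with ligands, 9695 to 10070 in untreated obese and 7275 to 8508 in lean rats, and the 3 endothelial genes to 873 to 1639, 1922 to 2132 and 2685 to 3538. The 8 hepatocyte genes summed to 3293 to 9836, 749 to 1093 and 1533 to 2749, and the 3 mesothelial and epididymal genes to 744 to 5763, 1292 to 1886 and 2095 to 4507. The part of these markers in the clock gene differences was not tested, and in whole tissue fewer cells of a type and less RNA per cell cannot be told apart.

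**Figure D1:**
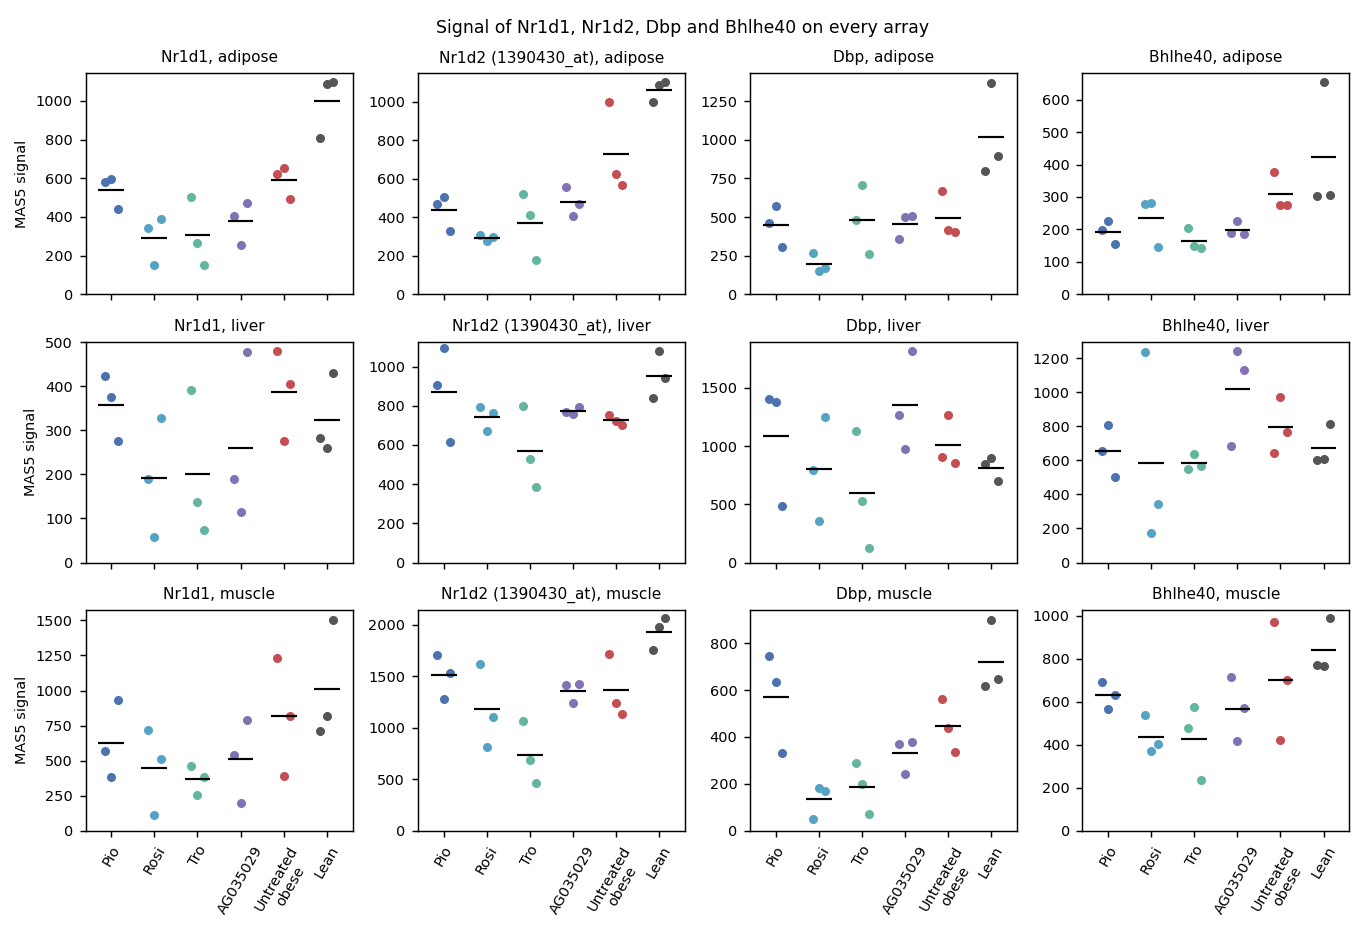
MAS5 signal (linear axis from 0) of Nr1d1, Nr1d2 probe set 1390430_at, Dbp and Bhlhe40 on each array, by tissue (rows) and condition. Points are arrays, each of 2 pooled rats, and bars are group means of 3 arrays. In adipose tissue all ligand arrays of the 4 probe sets lie below all lean arrays. The share of all probe sets without overlap was not counted. The 35.5% of tested probe sets called in ligand minus lean is a different measure. Per1 and Bhlhe41, not drawn here, overlapped in those groups.

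Set against untreated obese adipose tissue one by one, the ligand groups gave different numbers of calls. Rosiglitazone had 2 of 8 clock probe sets lower, against 5.56% of all probe sets called: Dbp fell by 1.25 on the log2 scale (SE 0.32, limma adjusted p = 0.0235) and Nr1d2 probe set 1390430_at fell by 1.22 (SE 0.28, adjusted p = 0.0148). Troglitazone had 4 of 8 lower, against 16.9% of all. They were Nr1d1 at -1.04 (limma adjusted p = 0.0442), Nr1d2 at -0.73 (0.0199) and -1.03 (0.0167) and Bhlhe40 at -0.83 (0.041). Pioglitazone and AG035029 had 0 of 8 called, against 14.5% and 15.1% of all, with 2 clock probe sets each at an unadjusted p under 0.05. The 4 comparisons share the 3 untreated obese arrays.

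Between ligands no clock probe set was called. The F-test among ligands in adipose tissue called 0 of 8 and 0.0315% of all probe sets. At an unadjusted p under 0.05 there were 3 of 8 and 878 of 9519. Dbp gave the smallest of these p-values, with means of 448 for pioglitazone, 195 for rosiglitazone, 482 for troglitazone and 454 for AG035029 (limma F-test adjusted p = 0.36). Over the 6 ligand pairs in 3 tissues, 138 differences were computed, 0 were called over all probe sets and 31 had an unadjusted p under 0.05. The smallest adjusted p was 0.206. Of the 42 liver differences among them 8 had an unadjusted p under 0.05, and 4 had one without troglitazone replicate 3, when 0 were again called. The share of all probe sets at that unadjusted p was not counted for the ligand pairs. The 95% intervals reached a median of 0.64 to each side on the log2 scale. Doses and treatment lengths are not given, and the differences are between groups as labelled.

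In liver Per1 was lower in untreated obese than in lean rats and higher with the ligands than in untreated obese rats, and Per2 was higher in ligand-treated than in lean rats. Both Per1 differences rest on the same 3 untreated obese arrays, and Per1 was not called between ligand-treated and lean rats. The REV-ERB genes, Dbp and Bhlhe40 had no call in any of the 3 main liver comparisons. In ligand minus untreated obese 4 of the 7 clock probe sets tested lay below 0, with a median of -0.01 against -0.01 over all tested. In ligand minus lean 6 of 7 did, with a median of -0.11 against -0.02, and in untreated obese minus lean 3 of 7, with a median of 0.23 against -0.01. Without troglitazone replicate 3 the numbers below 0 were 3, 5 and 3 of 7 and the medians 0.05, -0.07 and 0.23, and each comparison still had 1 of 7 called.

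Per1 had liver signals of 319, 225 and 265 with pioglitazone, 292, 254 and 310 with rosiglitazone, 171, 388 and 137 with troglitazone, 400, 478 and 453 with AG035029, 74.1, 71.7 and 165 in untreated obese rats, and 208, 383 and 392 in lean rats. The untreated obese arrays lay below every lean array and below every ligand array except 1 of troglitazone. The ligand mean was 2.66-fold above untreated obese (log2 difference 1.41, SE 0.28, limma adjusted p = 0.0205), 1 of 7 clock probe sets against 0.494% of all. Without troglitazone replicate 3, the library with muscle transcripts, it was 1.48 (adjusted p = 0.00946). The call ended without untreated obese replicate 1 or 2, with adjusted p of 0.138 and 0.0719 (limma). Untreated obese minus lean was -1.52 (SE 0.35, limma adjusted p = 0.0435), 1 of 7 against 0.672% of all. That call ended in 13 of the 18 fits that left out 1 array, with an adjusted p of up to 0.19, and it held without troglitazone replicate 3 (adjusted p = 0.0312). It ended also with a filter or scaling changed, as given in the closing section. Ligand minus lean was -0.11 (95% interval -0.69 to 0.46), and -0.04 without troglitazone replicate 3 (95% interval -0.60 to 0.51).

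By ligand, Per1 rose with AG035029 by 1.99 on the log2 scale (SE 0.35, limma adjusted p = 0.0141), the 1 of 7 clock probe sets called there, against 0.2% of all. Its liver differences from untreated obese were 1.30 with pioglitazone (adjusted p = 0.284), 1.38 with rosiglitazone (0.142) and 0.98 with troglitazone (0.295), none of them called (limma). Those 3 comparisons had 0 of 7 clock probe sets called, against 0.021%, 0.063% and 0.662% of all, with 2, 2 and 3 at an unadjusted p under 0.05. Without troglitazone replicate 3 the troglitazone difference of Per1 was 1.26 (limma adjusted p = 0.233) and that of AG035029 1.99 (adjusted p = 0.00868). The liver F-test among ligands called 0 of 7, against 0.0105% of all. It had 0 of 7 at an unadjusted p under 0.05, against 601 of all 9519. It gave Per1 an adjusted p of 0.832 (limma F-test), or 0.992 without that library, when 0 of 7 were again called.

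Per2 had liver signals of 624, 816 and 677 with pioglitazone, 385, 608 and 602 with rosiglitazone, 845, 578 and 606 with troglitazone, 867, 797 and 755 with AG035029, 451, 690 and 635 in untreated obese rats, and 363, 410 and 159 in lean rats. All lean arrays lay below all untreated obese arrays, and 1 rosiglitazone array fell within the lean range. Ligand minus lean was 1.15 (SE 0.22, a 2.22-fold higher level, limma adjusted p = 0.00411), 1 of 7 against 3.18% of all. Without the dimmest lean array, replicate 3, it was 0.76 and was not called (limma adjusted p = 0.061). Without troglitazone replicate 3 it was 1.17 (adjusted p = 0.00543). Untreated obese minus lean was 0.97 (SE 0.28, limma adjusted p = 0.134), not called.

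**Figure D2:**
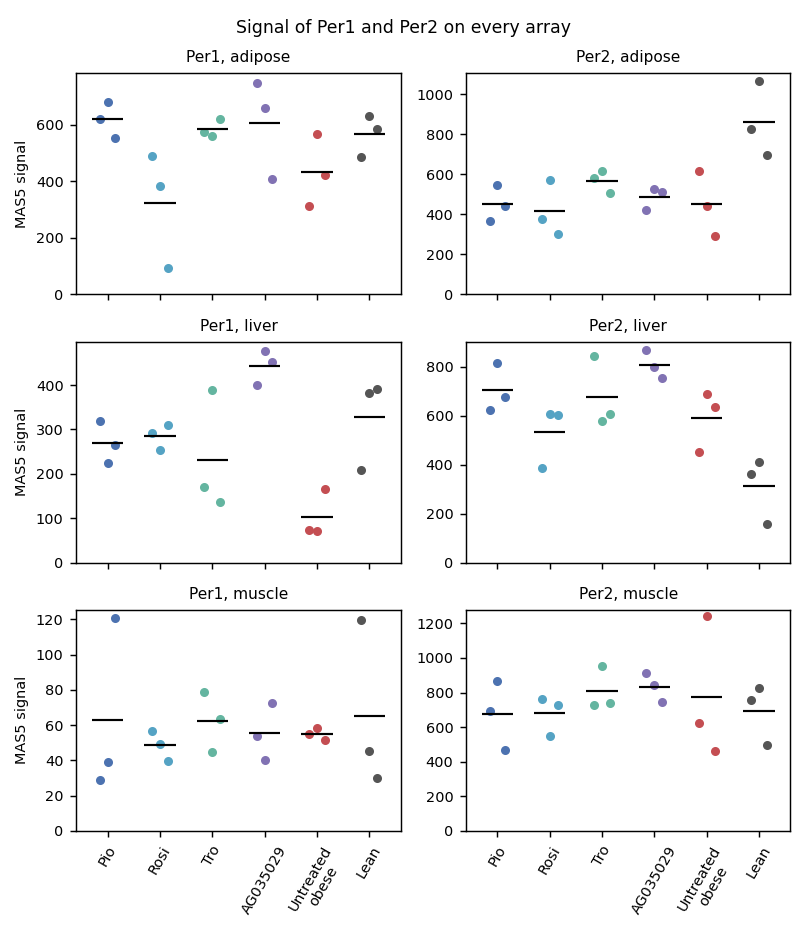
MAS5 signal (linear axis from 0) of Per1 and Per2 on each array, by tissue (rows) and condition. Points are arrays, bars are means of 3 arrays, and in adipose tissue every obese array of Per2 lies below the lean arrays while in liver every untreated obese array lies above them.

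In muscle no clock probe set was called in untreated obese minus lean, where 0 of 8 had an unadjusted p under 0.05 and 0.021% of all probe sets were called, or in ligand minus untreated obese, where 1 of 8 had an unadjusted p under 0.05 and 0.242% were called. In ligand minus lean 1 of 8 fell and 0 rose, against 1.11% of all. The median there was -0.78 over the clock probe sets and -0.04 over all tested, and 6 of the 8 had an unadjusted p under 0.05.

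The called gene was Dbp. Its muscle signals were 746, 634 and 332 with pioglitazone, 51.0, 183 and 168 with rosiglitazone, 289, 202 and 70.7 with troglitazone, 372, 242 and 378 with AG035029, 564, 438 and 337 in untreated obese rats, and 618, 900 and 646 in lean rats. Rosiglitazone and troglitazone arrays were all below the untreated obese arrays, and 2 pioglitazone arrays lay within the lean range. Ligand minus lean was -1.46 (SE 0.34, a 2.76-fold lower level, limma adjusted p = 0.0328). The call ended when any 1 of the 3 lean arrays or AG035029 replicate 2 was left out (limma adjusted p of 0.0551 to 0.229). Differences from untreated obese were 0.30 for pioglitazone, -1.71 for rosiglitazone, -1.31 for troglitazone and -0.41 for AG035029, none of them called (limma adjusted p of 0.979, 0.225, 0.222 and 0.93). Pioglitazone minus rosiglitazone for Dbp in muscle was 2.01 (95% interval 1.13 to 2.90, limma adjusted p = 0.216).

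Nr1d2 in muscle lay just short of the threshold. Probe set 1390430_at read 1711, 1277 and 1536 with pioglitazone, 1620, 810 and 1103 with rosiglitazone, 1068, 691 and 461 with troglitazone, 1416, 1237 and 1429 with AG035029, 1721, 1239 and 1134 in untreated obese rats, and 1756, 1974 and 2065 in lean rats. Every obese array, treated or not, was below every lean array. Ligand minus lean was -0.76 with this probe set (SE 0.20, limma adjusted p = 0.0727) and -1.02 with 1370541_at (SE 0.25, adjusted p = 0.0518). Nr1d1 in muscle averaged 488 in the ligand groups, 817 in untreated obese rats and 1012 in lean rats, with groups that overlapped. Its ligand minus lean difference was -1.13 (SE 0.44, limma adjusted p = 0.303). Bhlhe40 and Bhlhe41 were at -0.73 and -0.79 in the same comparison (limma adjusted p = 0.184 and 0.148), Tef at -0.50 (0.714) and Per2 at 0.12 (0.901). By single ligand 0 of 8 clock probe sets were called in muscle, against 0.231% of all probe sets for pioglitazone, 0.0315% for rosiglitazone, 0.704% for troglitazone and 0.116% for AG035029. At an unadjusted p under 0.05 there were 0, 2, 5 and 0 of 8, against 569, 641, 1017 and 640 of all 9519. The muscle F-test among ligands called 0 of 8 clock probe sets and 0% of all, with 3 of 8 and 921 of 9519 at an unadjusted p under 0.05 (limma). The adipocyte genes Fabp4 and Aqp7 rose in muscle with the ligands, by 2.03 and 1.71 over untreated obese (limma adjusted p = 0.000296 and 0.00501), and the part of fat cells in the clock gene values was not tested.

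Agreement across tissues was asked directly in a joint fit of all 54 arrays and 11520 probe sets, in which 9 clock probe sets were tested. The fit took the arrays as independent, and its intervals and p-values rest on that. The mean over tissues of untreated obese minus lean called 0 of 9, against 0.642% of all probe sets. An unadjusted p under 0.05 was found for 3 of 9, against 1211 of 11520 (limma). The lowest adjusted p was that of Nr1d2 probe set 1370541_at, at -0.57 (95% interval -0.89 to -0.25, limma adjusted p = 0.0779). Its differences in the single tissues were -0.57 in adipose tissue, -0.58 in muscle and -0.56 in liver, and with the second probe set they were -0.57, -0.52 and -0.38. The mean over tissues of ligand minus untreated obese also called 0 of 9, against 2.99% of all. There 5 of 9 had an unadjusted p under 0.05, against 1765 of 11520 (limma). Nr1d1 was at -0.75 (95% interval -1.25 to -0.25, limma adjusted p = 0.0909), with -0.72 in adipose tissue, -0.76 in muscle and -0.78 in liver. Same-number arrays of different tissues deviated together for Nr1d1, with r up to 0.881 as given below. The 3 tissue values may therefore not be independent, and the interval may be too narrow. Nr1d2 probe set 1390430_at was at -0.38 (limma adjusted p = 0.0853), with -0.88 in adipose tissue, -0.25 in muscle and -0.01 in liver. Per1 was at 0.53 (limma adjusted p = 0.101). Without liver troglitazone replicate 3 the means over tissues were -0.71 for Nr1d1, -0.36 for Nr1d2 probe set 1390430_at and 0.56 for Per1 (limma adjusted p = 0.102, 0.0971 and 0.0784). The liver values were then -0.66 for Nr1d1 and 0.05 for Nr1d2 probe set 1390430_at, whose sign turned.

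The joint fit also tested whether the 3 tissues differed. For untreated obese minus lean, 1 of 9 clock probe sets was called, against 0.868% of all. It was Per2, at -0.95 in adipose tissue, 0.07 in muscle and 0.97 in liver (limma F-test over tissues, adjusted p = 0.0292). The call ended when any of 7 arrays was left out (adipose untreated obese replicate 2 or 3, adipose lean replicate 1 or 2, liver untreated obese replicate 2 or 3, liver lean replicate 3), with adjusted p up to 0.121 (limma), and it was at 0.0282 without liver troglitazone replicate 3. For ligand minus untreated obese 0 of 9 were called, against 4.93% of all. There 3 of 9 had an unadjusted p under 0.05, against 1989 of 11520 (limma F-test). Per1 had the lowest adjusted p, 0.0776 (limma), at 0.20 in adipose tissue and 1.41 in liver, or 0.0577 without liver troglitazone replicate 3. A p above the threshold does not show that the tissues moved alike.

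**Figure D3:**
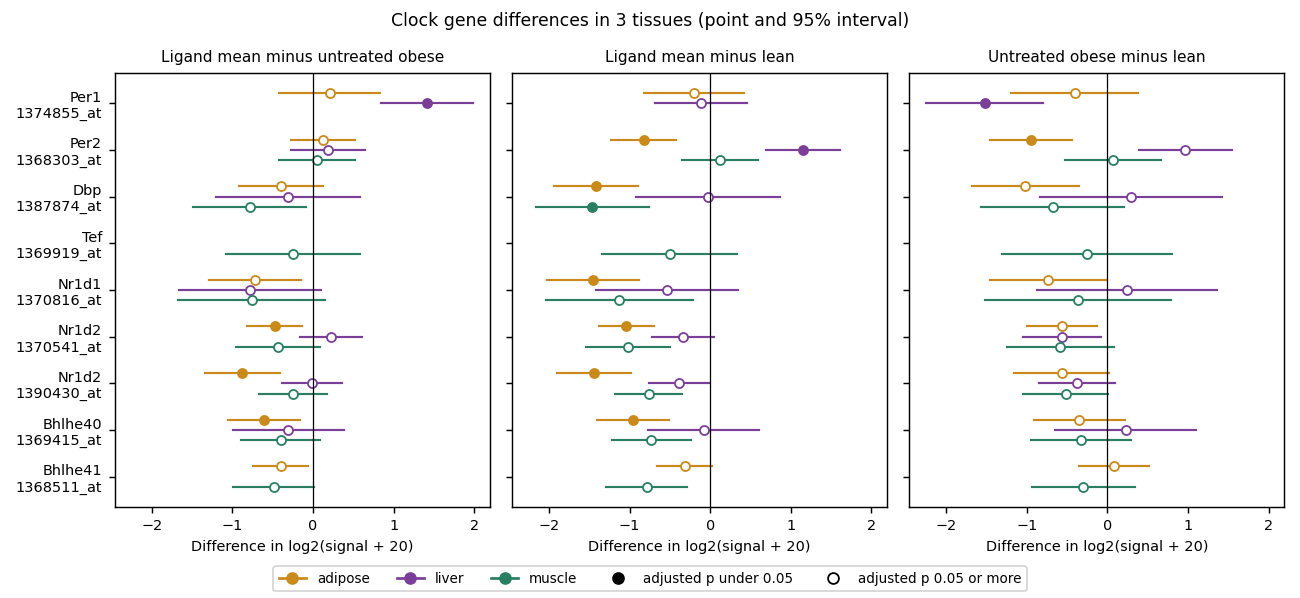
Difference in log2(signal + 20) for 9 clock probe sets in ligand mean minus untreated obese, ligand mean minus lean and untreated obese minus lean, with 95% intervals from limma, coloured by tissue. Filled points have an adjusted p under 0.05, and Per2 lies at -0.95 in adipose tissue and 0.97 in liver in untreated obese minus lean.

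Within a condition, the 3 arrays of a tissue differed widely for some clock genes, and arrays that carry the same number in another tissue differed in the same direction. Rosiglitazone replicate 2 had the lowest Nr1d1 signal of its group in all 3 tissues, at 150 in adipose tissue, 116 in muscle and 57.6 in liver, against 342 to 387, 514 to 720 and 189 to 327 on the other arrays of that group. Over all probe sets its adipose array had the lowest mean correlation with its group in that tissue, 0.9619. Its muscle array had the largest root mean square deviation in muscle, 0.463 on the log2 scale. Its liver array, at 0.448, stayed below the liver maximum of 0.487. Troglitazone replicate 3 had the lowest Dbp signal of its group in all 3 tissues, at 259 in adipose tissue, 70.7 in muscle and 125 in liver. It also had the lowest Nr1d2 signal with 1390430_at, at 175, 461 and 384 in that order. Deviations from the group mean on the log2 scale were paired by condition and number between tissues, which gave 18 pairs.

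For Nr1d1 Pearson's r of these deviations was 0.881 between adipose tissue and liver (Spearman's rho 0.732, r = 0.812 without the 2 pairs farthest from the median on the first axis), 0.524 between adipose tissue and muscle (rho 0.459, 0.45 without the 2) and 0.679 between liver and muscle (rho 0.668, 0.605 without the 2). Of 8188 probe sets tested in both adipose tissue and liver, 2, including Nr1d1 itself, had an r at least as high. For Nr1d2 probe set 1390430_at r was 0.799, 0.72 and 0.58 in the same order, and 0.576, 0.446 and 0.167 without the 2 farthest pairs, so much of it rests on those arrays. For Dbp r was 0.554, 0.358 and 0.621, and 0.384, 0.113 and 0.33 without the 2. Per2 had 0.187, 0.216 and 0.349, Bhlhe40 had 0.067, 0.112 and 0.0685, Nr1d2 probe set 1370541_at had 0.561, 0.378 and 0.161, and Bhlhe41 had 0.26 between adipose tissue and muscle. Per1 had -0.0699 between adipose tissue and liver. Over all probe sets tested in both tissues the median r was 0.0209, 0.00251 and -0.007. For Nr1d1 in the other tissue pairs, 310 of 8266 and 45 of 8101 probe sets had an r at least as high. In the same order these numbers were 9, 29 and 175 for Nr1d2 probe set 1390430_at and 217, 968 and 101 for Dbp. They were 200, 864 and 2346 for 1370541_at, 2373, 1993 and 925 for Per2 and 3587, 2996 and 3271 for Bhlhe40. Bhlhe41 had 1627 of 8266 and Per1 5038 of 8188. These are descriptions with no test, the 3 deviations of a group sum to 0, and the labels do not say that equal numbers mark the same rats or the same hour. The troglitazone replicate 3 liver library is among the pairs. Without that number, a choice made after seeing the data, 17 pairs remained, and r between adipose tissue and liver was 0.856 for Nr1d1, 0.656 for Nr1d2 probe set 1390430_at and 0.258 for Dbp. Between liver and muscle it was 0.773, 0.355 and 0.36.

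**Figure D4:**
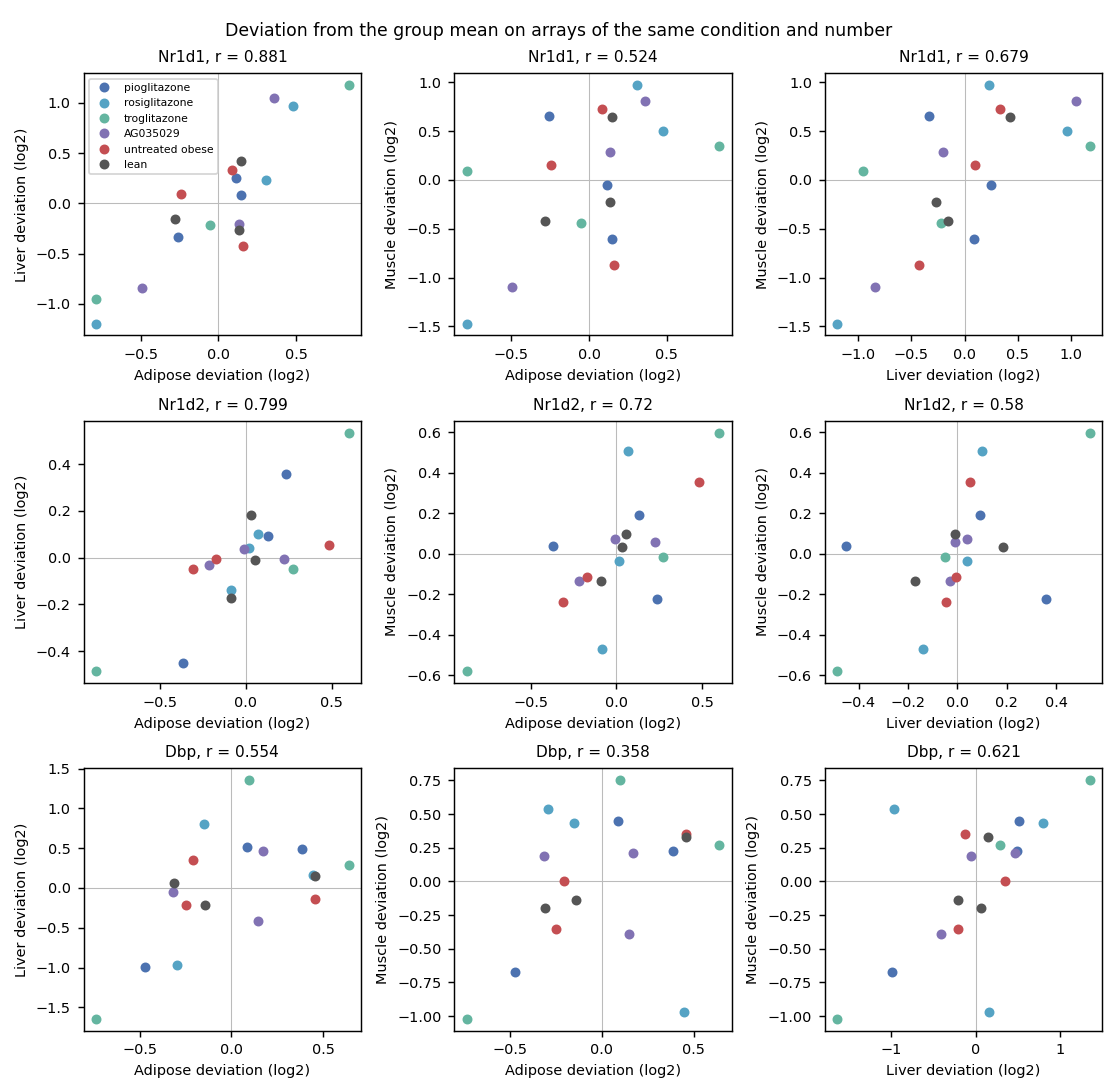
Deviation from the group mean in log2(signal + 20) for Nr1d1, Nr1d2 probe set 1390430_at and Dbp, with each point a pair of arrays of the same condition and number in 2 tissues (18 pairs per panel). The Nr1d1 points run along the diagonal between adipose tissue and liver, with r = 0.881.

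**Figure D5:**
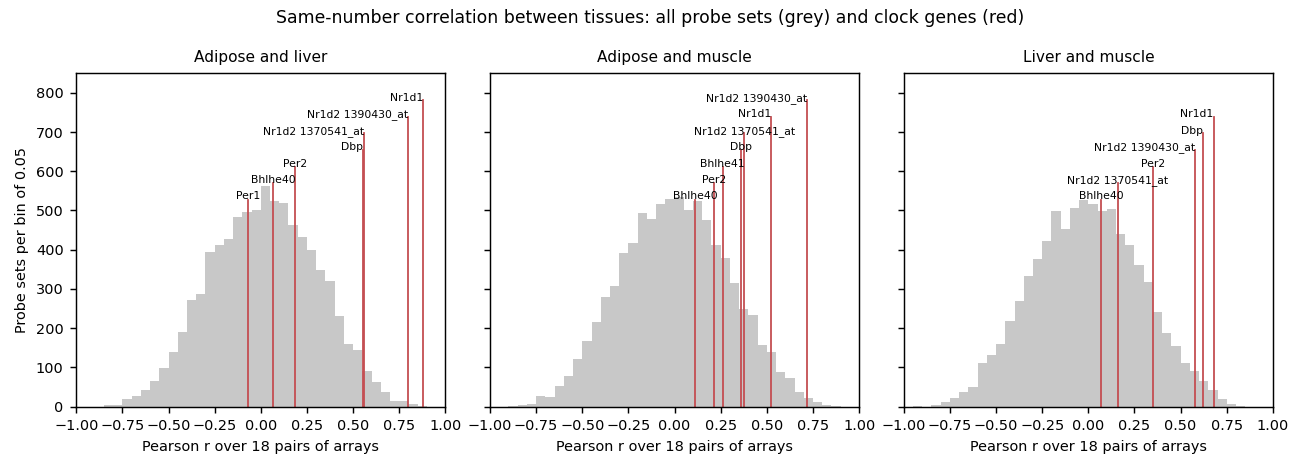
Number of probe sets by Pearson's r of same-number deviations between 2 tissues over 18 pairs of arrays (grey bars, bins of 0.05), with the clock probe sets as red lines. Nr1d1 lies at 0.881, 0.524 and 0.679 in the 3 panels, while the medians over all probe sets are 0.0209, 0.00251 and -0.007.

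Correlations between clock genes were also read from array to array inside a tissue. In adipose tissue, over the deviations of 18 arrays, r was above 0 for 18 of the 21 pairs of clock genes (median 0.385), with 0.708 for Nr1d1 and Nr1d2 and 0.685 for Dbp and Nr1d2. In liver it was above 0 for 12 of 15 pairs (median 0.225), with 0.849 for Dbp and Nr1d2 and 0.774 for Dbp and Nr1d1, and in muscle for 16 of 21 (median 0.323), with 0.848 for Tef and Nr1d2. Over all pairs of the 9519 tested probe sets r was above 0 for 50.3% of pairs for adipose tissue, 50.2% for liver and 50.1% for muscle. Some clock gene pairs were opposed, down to -0.574 for Per2 and Bhlhe41 and -0.371 for Per2 and Nr1d1 in muscle. The lowest r was -0.409 in liver, for Per2 and Bhlhe40, and -0.274 in adipose tissue, for Per1 and Nr1d1. Without troglitazone replicate 3 the liver count was 9 of 15 (median 0.189), with 0.748 for Dbp and Nr1d2 and 0.731 for Dbp and Nr1d1. Bmal1, the activator that REV-ERB proteins repress, tended the other way, most clearly in adipose tissue. Its r with Nr1d1 was -0.574 in adipose tissue but only -0.0952 in muscle and -0.153 in liver. Its r with the clock genes was below 0 for 6 of 7 in adipose tissue, 6 of 7 in muscle and 5 of 6 in liver, down to -0.871 with Nr1d2 in adipose tissue, -0.63 with Per2 in muscle and -0.495 with Nr1d2 in liver, the last of which was -0.448 without troglitazone replicate 3, with 5 of 6 again below 0. The median of those 6 liver values was then -0.0782, near 0. On the troglitazone arrays of adipose tissue, for example, Bmal1 read 137, 136 and 279 where Nr1d2 read 522, 412 and 175. The 2 genes of a pair share each array, and no p is given.

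Other parts of the clock machinery were read in the same comparisons. Of 13 other clock components measured, 9 were tested in adipose tissue and 10 each in liver and muscle, and 0 were called in untreated obese minus lean or in ligand minus untreated obese in any tissue. Liver had 0 of 10 called without troglitazone replicate 3 as well. Bmal1 lay -0.04 from untreated obese with the ligands in adipose tissue (SE 0.20, limma adjusted p = 0.902), -0.30 in liver (SE 0.36, 0.836) and -0.15 in muscle (SE 0.27, 0.952), and Clock, its partner, at 0.12, -0.23 and -0.38 (adjusted p = 0.515, 0.849 and 0.772). Their liver values were -0.35 and -0.29 without troglitazone replicate 3. In ligand minus lean adipose tissue 2 of 9 fell, against 35.5% of all probe sets called. They were Cry2, a partner of the PER proteins, at -0.62 (SE 0.15, limma adjusted p = 0.00429) and Hlf, another PAR bZIP factor, at -0.64 (SE 0.17, adjusted p = 0.00712). The median of the 9 was -0.01, against -0.07 over all tested.

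Genes often described as outputs of the clock were read next. In adipose tissue with the ligands, against untreated obese, 2 of 14 rose and 0 fell, a share below the 20.6% of all probe sets called. They were Nampt, which makes NAD, at 0.89 (SE 0.13, limma adjusted p = 0.000114) and Tsc22d3, also a glucocorticoid target, at 0.56 (SE 0.12, adjusted p = 0.00202). In liver 1 of 16 rose, against 0.494% of all. It was Por, the electron donor of cytochrome P450 enzymes, at 1.22 (SE 0.22, limma adjusted p = 0.011), or 1.2 without troglitazone replicate 3 (adjusted p = 0.0167). In muscle 1 of 15 rose, against 0.242% of all. It was Pck1, a gluconeogenic and glyceroneogenic enzyme that fat cells also express strongly, at 2.69 (SE 0.43, limma adjusted p = 0.00278). The adipocyte genes summed to 8484 to 31221 on the ligand arrays of muscle and to 2890 to 5732 on the untreated obese ones, and their part in the Pck1 value was not tested. Between untreated obese and lean 1 of 14 rose in adipose tissue, against 6.02% of all, the cell cycle inhibitor Cdkn1a at 1.43 (SE 0.30, limma adjusted p = 0.00741), and 0 were called in liver and muscle. Rgs16 was called there in liver without troglitazone replicate 3, at 2.30 (adjusted p = 0.0293, against 0.0752 with it). Rgs16, a regulator of G protein signalling, was at -1.36 in adipose tissue and 2.65 in liver in ligand minus lean (limma adjusted p = 0.000624 and 0.00163), and at 2.83 in liver without that library. In that comparison 3 of 14 rose and 2 fell in adipose tissue, 4 of 16 rose and 1 fell in liver with or without that library, and 2 of 15 rose and 1 fell in muscle, against 35.5%, 3.18% and 1.11% of all called.

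Hormone and stress signals also reset clock genes, and 2 lists were read for that reason. Of the glucocorticoid-responsive genes 3 of 12 rose in adipose tissue in ligand minus untreated obese, against 20.6% of all probe sets called. They were Fkbp5 at 0.94, Klf15 at 0.69 and Tsc22d3 at 0.56 (limma adjusted p = 0.00074, 0.00303 and 0.00202), and 0 of 14 in liver and 0 of 12 in muscle were called. The metallothionein gene Mt2A was called in liver without troglitazone replicate 3, at 1.64 (limma adjusted p = 0.00687), against 1.5 with it (0.0543). Klf15 was at -1.14 in untreated obese minus lean adipose tissue (SE 0.19, limma adjusted p = 0.00135). It was the only called gene of the 12 tested there, against 6.02% of all. This difference shares the untreated obese arrays with the rise of Klf15 in ligand minus untreated obese. Fkbp5, a sensitive glucocorticoid target, rose in ligand minus lean in all 3 tissues, by 0.73 in adipose tissue, 1.54 in muscle and 1.14 in liver (limma adjusted p = 0.00285, 3.5e-05 and 0.000492). Its liver value was 1.16 without troglitazone replicate 3. In that comparison 2 of 12 rose and 5 fell in adipose tissue, against 35.5% of all called. Those that fell were Nr3c1 at -0.48, Ddit4 at -0.71, Klf15 at -0.45, Dusp1 at -0.47 and Errfi1 at -0.58 (limma adjusted p of 0.00057 to 0.0445). In liver without troglitazone replicate 3 Fkbp5 was the 1 of 14 called, against 3.09% of all. In muscle Mt2A at 1.55 and Ddit4 at 1.07 rose as well (limma adjusted p = 0.000288 and 0.00837). With Fkbp5 they were the only called genes of the 12 tested there, against 1.11% of all. Of the immediate early genes 11 of 14 fell in adipose tissue in ligand minus lean, against that same 35.5%, among them Jun at -1.01, Ier2 at -1.06, Egr1 at -1.34 and Fos at -1.49 (limma adjusted p = 0.000212, 0.00135, 0.00331 and 0.00428), with a median of -0.82 against -0.07 over all. In muscle Fos was at 1.70 in ligand minus untreated obese and at -2.36 in untreated obese minus lean (limma adjusted p = 0.00419 and 0.0194). Those comparisons called 0.242% and 0.021% of all probe sets, and they share the untreated obese arrays. In liver without troglitazone replicate 3, 0 of 11 immediate early genes were called in each of the 3 main comparisons.

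The genes whose profiles were most like those of the clock genes were found by correlation over all 54 arrays after removing each tissue's mean. With the mean of the 6 clock probe sets tested in all tissues, the highest r belonged to RT1-S3 (0.67), Lima1 (0.66), Enpp2 (0.65) and Sdc2 (0.64), and Ctsh, Cited2 and Plac8 followed at 0.60 to 0.62. The lowest belonged to Pdk4 (-0.70), Ucp3 (-0.69), Hadhb (-0.64) and Cidea (-0.63). Sdc2 was also the gene most like Nr1d1 (0.67), Cited2 that most like Nr1d2 with 1370541_at (0.70), Enpp2 with 1390430_at (0.68), Add3 for Dbp (0.58), Dglucy for Per2 (0.62) and Nfia for Bhlhe40 (0.62). These values join differences between groups and between arrays of a group, and carry no p. Without liver troglitazone replicate 3 the values with the mean of the 6 probe sets moved by at most 0.02.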

How the data were processed

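The deposited values are linear intensities that the authors made with MAS5, per the submitters' processing notes, which give no version. Labels' protocols state pooled RNA of 2 rats per array and 3 arrays per group. The trimmed mean of the deposited signals (lowest and highest 2% left out) was 500.1 or 500.2 on every array, so no further scaling was applied. Genes were named from the platform annotation, and 57 control probe sets were left out.

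Signals were used as log2(signal + 20). Those above the tissue's 40th percentile by mean entered limma 3.58.1 (R 4.3.3), with 1 fit of 18 arrays per tissue, a joint fit of 54 arrays, group means, eBayes with trend and Benjamini-Hochberg adjustment over all probe sets tested (threshold 0.05). Every adjusted p is from limma. The fit per tissue was tested on simulated data with independent noise on every array. The joint fit was not tested in that way, and the simulation held no correlation between tissues. All clock probe sets are named. Called genes of each list are named up to 6 per comparison, by smallest adjusted p, or counted. Members and lists were chosen with earlier results of these data known. Alternatives changed the pseudocount, filter, normalization, trend, array weights, replicate block and arrays, and left out 1 array at a time. Equal array numbers were not taken as pairs, and the labels do not say that they mark the same rats. Over all probe sets same-number deviations had a mean r of 0.00684 between tissues and of -0.00363 to 0.0112 within a tissue. A value over all probe sets cannot decide whether the arrays are paired, because a few genes hardly move it. Nr1d1 alone had an r of 0.881 between adipose tissue and liver. Promoter windows came from RefSeq (GRCr8). The array number limits the precision.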

Additional observations from a re-analysis of the deposited data

Results flagged for a closer look

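Per2 differed between tissues in untreated obese minus lean, by a test of the difference itself (limma F-test over 3 tissues in the joint fit, adjusted p = 0.0292). It was lower in untreated obese adipose tissue, at 615, 438 and 292 against 824, 1065 and 695 in lean rats, and higher in untreated obese liver, at 451, 690 and 635 against 363, 410 and 159 in lean rats. In muscle the groups overlapped, at 622, 1240 and 462 in untreated obese rats and 756, 825 and 497 in lean rats. The harvest hour of the tissues is not given, and its part in the difference was not tested.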

How the results depend on the processing

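No direction of a called clock gene reversed: of 3052 single values under alternatives, 2948 kept their side of the threshold (42 of them, all uncalled, with the other sign), 67 lost a call, 37 gained one and 0 of the called ones changed sign. Counts of called clock probe sets moved more. In adipose tissue, ligand minus untreated obese (3) gave 1 without the filter, with quantile normalization and with median centring. Rosiglitazone (2) gave 1 without the filter. Troglitazone (4) gave 2 without the filter and with only the arrays compared, and 1 with quantile normalization and with median centring, which shifted all differences of that ligand by 0.14. Untreated obese minus lean (1) gave 2 with a filter at the 60th percentile and with the replicate block, and 3 with array weights and with only the arrays compared. Pioglitazone (0) gave 1 with only the arrays compared. In liver, untreated obese minus lean (1) gave 0 with a pseudocount of 80, without the filter, with the 60th percentile filter (where Per1 was not tested), quantile normalization, median centring, no trend, the replicate block and only the arrays compared. Ligand minus untreated obese (1) and AG035029 (1) gave 0 with the 60th percentile filter, and AG035029 also 0 with only the arrays compared. In muscle, ligand minus lean (1) gave 2 with a pseudocount of 80 and with the 60th percentile filter, 0 without the filter and without the trend, and 3 with array weights and with the replicate block. The joint mean over tissues of untreated obese minus lean (0) gave 1 with array weights. Leaving out 1 array gave ranges in adipose tissue of 0 to 2 for untreated obese minus lean, 0 to 4 for ligand minus untreated obese, 6 to 7 for ligand minus lean, 0 to 1 for pioglitazone, 0 to 3 for rosiglitazone and 0 to 5 for troglitazone. In liver it gave 0 to 1 for all 3 main comparisons, AG035029, rosiglitazone and the F-test among ligands, in muscle 0 to 3 for ligand minus lean and 0 to 1 for troglitazone, and 0 to 1 for the 4 joint counts. The replicate block ended the calls of Per1 in untreated obese minus lean liver (adjusted p = 0.0526) and of Nr1d2 probe set 1370541_at in ligand minus untreated obese adipose tissue (0.0571), and added Dbp in untreated obese minus lean adipose tissue (0.0483) and both Nr1d2 probe sets in ligand minus lean muscle (limma adjusted p = 0.018 and 0.0306). In the joint fit the block entered instead as 1 correlation over all probe sets, estimated at -0.0021. With a value so near 0 it could hardly change the Per2 difference between tissues, which stayed at 0.0295 (limma F-test, adjusted p). Quantile normalization left the Bhlhe40 ligand call in adipose tissue at 0.0839. Beyond filters and array sets, which change what is tested, the cause was not tested. Signals of Tef in adipose tissue and liver, Per1 in muscle, Bhlhe41 in liver and Nr1d2 probe set 1370540_at were too low to test.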
